A study of Mus musculus with 20 samples.

Results

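The genes described here were 4 simple keratins and 6 genes used to recognise ovarian surface epithelial (OSE) cells, the single cell layer that covers the ovary. They were chosen by name: Krt7, Krt8, Krt18 and Krt19, the surface proteins Upk3b and Msln, and the transcription factors Wt1, Gata4, Gata6 and Lhx9. Of these 10 genes, 9 were among the 14299 genes of the deposited count table, and Lhx9 was not analysed here. Primary mouse OSE cells spent 48 hours in hormone-free medium and were then given 100 nM estradiol (E2), or ethanol vehicle at 0.0002% for control cells, over 15 days of culture. Per the labels, a Fluidigm C1 circuit received control cells by its left inlet and E2 cells by its right, and each column of capture sites became 1 cDNA library. A difference between conditions therefore cannot be told apart from one between the sides of the circuit. The 10 control libraries held 30 to 36 cells each, and 26 to 32 were in each of the 9 E2 libraries, 589 cells in all. Column 13 was not analysed here. The p-values measure the spread between libraries, not between cultures or mice.

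The study split the cells into an E2-unresponsive cluster, called cluster 1, and responsive cells. Responsive cells numbered 203 in control and 218 in E2 libraries. Cluster 1 held 126 control cells and 42 E2 cells, and 39 of the latter came from 7 libraries that had 3 or more, the ones used below. The median number of reads per cell was 143198 in control responsive cells, 117794 in E2 responsive cells, 112105 in control cluster 1 cells and 87620 in E2 cluster 1 cells. The median share of reads on mitochondrial genes was 2.08% in control responsive cells, 2.43% in E2 responsive cells, 2.53% in control cluster 1 cells and 3.55% in E2 cluster 1 cells. Total counts were 3867119 to 5077443 in a control library and 2692669 to 4037154 in an E2 library. Levels are given as CPM, the counts summed over the cells of 1 library and 1 cluster, per 1000000 of an adjusted total. The adjustment is TMM, which scales each total for differences in composition between sums. The protocol reads the 3′ end, so they are not divided by length. Tests and ranges compare levels within a gene. Sums over a list, shares of type I reads and the order of genes in a list describe reads only.

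Keratins are the intermediate filaments of epithelia, and each filament is built from pairs of a type I and a type II protein. Krt7 and Krt8 are type II and Krt18 and Krt19 are type I, and simple, single-layered epithelia use these 4. Uroplakin 3b (Upk3b) and mesothelin (Msln) are surface proteins of mesothelium, the tissue to which OSE is closely related. Wt1, Gata4, Gata6 and Lhx9 are transcription factors of the gonadal ridge, the embryonic structure from which the ovary and its surface form.

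Krt8 and Krt18, whose log2 fold changes with E2 had the same sign, are neighbours on mouse chromosome 15 of GRCm38. Krt8 lies at chr15:101996698-102004482 on the minus strand and Krt18 at chr15:102028180-102032027 on the plus strand, with 23697 bases between them and their start sites towards each other. The 250 bases upstream of their RefSeq start sites (GRCm38.p6) are shown, because the treatment was an estrogen, with the hexamer AGGTCA, the core of the estrogen response element, in capitals. The Krt8 window is chr15:102004343-102004592, read on the minus strand, and the Krt18 window is chr15:102027966-102028215, on the plus strand.
Krt8: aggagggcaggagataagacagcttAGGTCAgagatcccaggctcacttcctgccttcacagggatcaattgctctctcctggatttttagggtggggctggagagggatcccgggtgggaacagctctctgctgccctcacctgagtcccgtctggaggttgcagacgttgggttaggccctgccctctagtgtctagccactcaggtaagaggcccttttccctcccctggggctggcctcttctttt
Krt18: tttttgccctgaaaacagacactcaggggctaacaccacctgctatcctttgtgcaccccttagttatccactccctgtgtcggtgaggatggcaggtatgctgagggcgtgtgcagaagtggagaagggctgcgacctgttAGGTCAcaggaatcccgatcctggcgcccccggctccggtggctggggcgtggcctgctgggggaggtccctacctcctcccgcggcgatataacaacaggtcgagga
AGGTCA was searched on both strands (as AGGTCA or TGACCT), and each window held 1 match, which began 225 bases before the start of Krt8 and 108 bases before that of Krt18. The same window of Upk3b held 1 match, and those of Krt7 and Lhx9 held none. Of 32851 mouse promoter windows of this length, 14% held a match, so a match is common. The full element, GGTCA and TGACC with any 3 bases between them, was in none of these 5 windows and in 0.0639% of all. The matches are a description of the letters and not of binding. Krt7 lies at chr15:101411043-101430313, Krt19 at chr11:100140810-100148665, Upk3b at chr5:136038496-136046487, Msln at chr17:25748613-25754378, Wt1 at chr2:105126529-105173616 and Gata4 at chr14:63198922-63271692.

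The 2 clusters differed in their type I keratins. Krt19 was lower in cluster 1 than in responsive cells of the same library in 17 of the 17 libraries with at least 3 cells of each, with a median log2 difference of -5.69, or 51.6-fold. Msln was higher in cluster 1 in 17 of 17, with a median log2 difference of 3.42, or 10.7-fold. These are descriptions with no test, since the cells were clustered on their expression, and log2 differences between clusters are of CPM + 1. Over all genes, 2.19% were lower and 0.465% were higher in cluster 1 in all 17 libraries.

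**Figure D1:**
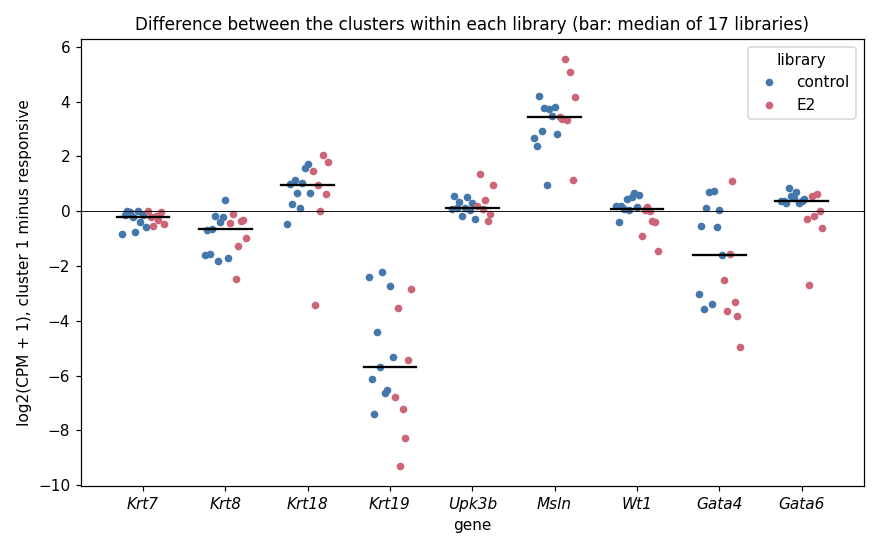
Difference in level between cluster 1 and responsive cells of the same library, in log2(CPM + 1), for 9 genes; each point is 1 of 17 libraries, coloured by treatment, and the bar is the median. Krt19 lies below 0 and Msln above 0 in 17 of 17 libraries, while the other 7 genes cross 0.

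Krt19 levels in cluster 1 ran from 1.46 through a median of 8.42 to 80.8 CPM in control libraries. In E2 libraries they ran from 0 through 5.16 to 87.7 CPM. Responsive cells ran from 260.1 to 498 CPM in control and from 432 to 762 CPM in E2 libraries, so the clusters did not overlap in either condition. The library at 0 (column 16) had 426262 cluster 1 reads, which allows up to 7.04 CPM of that total, a scale without TMM. Where Krt19 was highest in cluster 1, 1 cell carried most of its reads: 91.4% in the E2 library of column 20, at 87.7 CPM, and 86.9% in the control library of column 6, at 80.8 CPM.

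Krt18, the other type I keratin, was higher in cluster 1 in 15 of 17 libraries, with a median log2 difference of 0.95. Its cluster 1 levels ran from 261 through 799 to 1064 CPM in control libraries, and its responsive levels from 224 through 374 to 536 CPM, so the ranges overlapped. Krt8, which pairs with Krt18, was lower in cluster 1 in 16 of 17 libraries, by a median log2 difference of -0.66. Krt7 was lower in 14 libraries, with a median of -0.20. The balance between the type I keratins therefore differed between clusters: Krt19 made up 50.6% ± 9.78 (SD, n = 10) of the Krt18 and Krt19 reads in control responsive cells and 4.90% ± 7.10 (SD, n = 10) in control cluster 1 cells.

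Upk3b, Gata6 and Wt1 had smaller median differences between clusters than Gata4. Upk3b was higher in cluster 1 in 13 of 17 libraries (median log2 difference 0.13), Gata6 in 13 (0.37) and Wt1 in 12 (0.10). Gata4 was lower in 12 of 17 (-1.59). The 9 genes thus differed between clusters in both directions, and Upk3b and Krt7 were read in nearly every cell of both.

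Genes that mark stromal fibroblasts differed between the clusters in both directions. Of 10 such markers 7 were measured, and their summed level ran from 2087 to 2460.0 CPM in control responsive and from 2709.8 to 4382 CPM in control cluster 1 libraries. Col1a2, a chain of type I collagen, was at 14.6 ± 18 CPM in control responsive and 1895 ± 348 CPM in control cluster 1 libraries (SD, n = 10 each). Dcn, a matrix proteoglycan, was at 1238 ± 116 and 1411 ± 303 CPM. The other 5 markers had lower means in cluster 1. Control responsive and control cluster 1 means were 557 and 274 CPM for Col3a1, 193 and 78.7 CPM for Col1a1, 168 and 9.54 CPM for Thy1, 69.4 and 1.64 CPM for Fbln1, and 8.36 and 7.95 CPM for Pdgfra, the last within its spread. The part of these markers in the keratin difference was not tested.

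Krt19 rose with E2 in responsive cells. The study had reported higher Krt19 with E2 in each of its analyses, which used these same cells, so the rise is no separate result. Control libraries ran from 260.1 through a median of 396 to 498 CPM, and E2 libraries from 432 through 628 to 762 CPM. The E2 library of column 15, at 432 CPM, fell within the control range, and the other 8 lay above it, with the next at 600.1 CPM. The means were 406 ± 80.5 CPM (SD, n = 10) and 624 ± 86.8 CPM (SD, n = 9), and the log2 fold change was 0.62 (SE 0.13, adjusted p = 0.00977, edgeR). Krt19 was the 1 gene of the 9 that was called, where 1.37% of 10266 genes were. A call needs an adjusted p under 0.05 and a log2 fold change beyond 0.5 in either direction. It was called in 19 of 19 fits that left out 1 library and under 7 of 7 other settings.

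**Figure D2:**
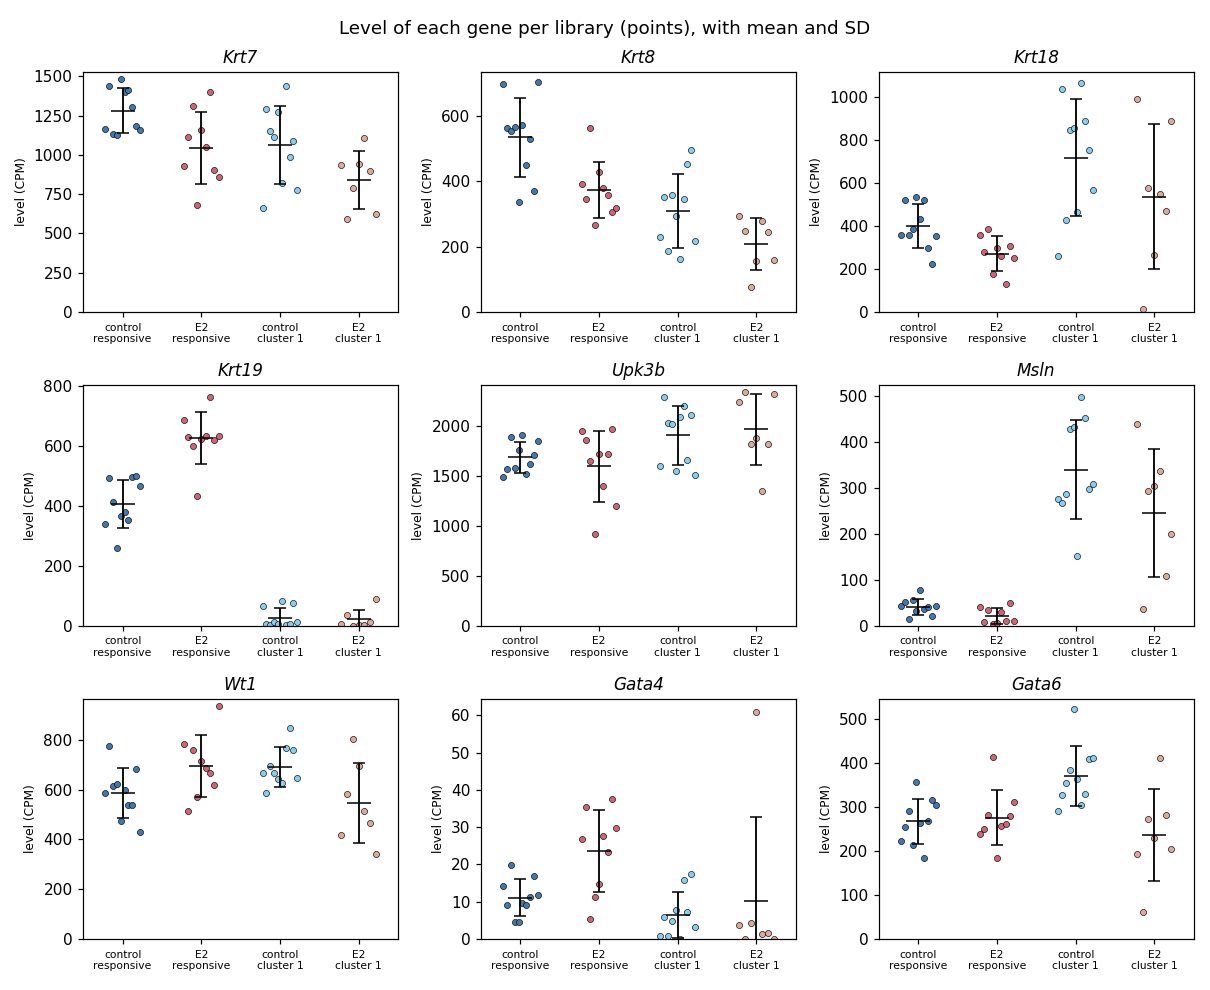
Level in CPM of each of 9 genes in every library, by treatment and cluster; points are libraries, bars show the mean and SD (10 control libraries, 9 E2 libraries, of which 7 for cluster 1), and the axes start at 0. Krt19 is higher in E2 than in control responsive cells and near 0 in cluster 1, and Msln is high in cluster 1.

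The type II keratins and Krt18 were lower in mean in E2 responsive cells, without passing the test. Krt8 ran from 336 through 559 to 704 CPM in control libraries and from 268 through 359 to 564 CPM in E2 libraries. Most E2 libraries lay below the control median, and the ranges overlapped. Its log2 fold change was -0.52 (SE 0.15, adjusted p = 0.103). Krt8 was called without the E2 library of column 14, the highest of its group (log2 fold change -0.62, adjusted p = 0.0336), and without the control library of column 5, the lowest of its group (-0.58, adjusted p = 0.0486), and by DESeq2 (-0.52, adjusted p = 0.0353).

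Krt18 ran from 224 through 374 to 536 CPM in control and from 131 through 277 to 384 CPM in E2 responsive libraries, with a log2 fold change of -0.56 (SE 0.18, adjusted p = 0.179). With each cell thinned to 20000 reads it was called, at -0.73 (adjusted p = 0.0352). Krt7 ran from 1124 through 1245 to 1483 CPM in control and from 679 through 1052 to 1398 CPM in E2 libraries, with a log2 fold change of -0.30 (SE 0.12, adjusted p = 0.377). The ranges of both genes overlapped. As a description, Krt19 made up 69.9% ± 6.67 (SD, n = 9) of the type I reads in E2 responsive cells, from 61.0% to 85.4%, beside 40.1% to 69.0% in control libraries.

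**Figure D3:**
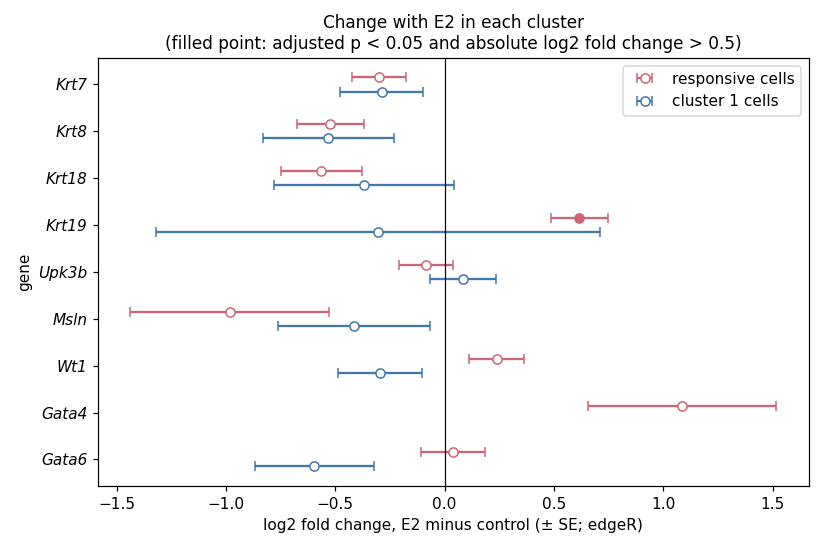
log2 fold change of each gene between E2 and control libraries, with its SE from edgeR, in responsive cells and in cluster 1 cells; a filled point is a called gene. Krt19 in responsive cells, at 0.62, is the one filled point, and Krt7, Krt8 and Krt18 lie below 0 in both clusters.

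Upk3b did not pass the test in responsive cells. Its levels ran from 1491 through 1660.4 to 1906 CPM in control and from 915 through 1713 to 1963 CPM in E2 libraries, and the log2 fold change was -0.09 (SE 0.12, adjusted p = 0.911). Msln was low in these cells, from 14.7 through 41.0 to 77.3 CPM in control and from 2.59 through 10.1 to 48.5 CPM in E2 libraries. The groups overlapped, and the log2 fold change of Msln was -0.98 (SE 0.45, adjusted p = 0.481).

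Among the transcription factors of responsive cells none was called. Wt1 ran from 429.7 through 595 to 775 CPM in control and from 516 through 689 to 935 CPM in E2 libraries (log2 fold change 0.24, SE 0.13, adjusted p = 0.579). Gata6 ran from 185 through 266 to 356 CPM and from 184 through 263 to 414 CPM, an almost complete overlap (0.04, SE 0.15, adjusted p = 0.977). Gata4 had few reads, with levels from 4.44 through 10.47 to 19.8 CPM in control and from 5.43 through 26.8 to 37.5 CPM in E2 libraries. Its log2 fold change was 1.09 (SE 0.43, adjusted p = 0.347), and the groups overlapped. No gene of the 9 had E2 and control libraries that were fully separate, against 0.419% of all genes tested in responsive cells.

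Counting cells in place of reads gave another ranking. The share of cells with at least 1 read, with each cell thinned to 20000 reads so that depth was equal, was compared for each gene between libraries. Krt18 was read in 61.1% to 86.7% of responsive cells of a control library (median 79.6%) and in 29.2% to 64% of those of an E2 library (median 52.9%). The lowest library was the E2 library of column 15, and the groups overlapped at 61.1% to 64%. The mean fell from 77.4% ± 8.88 (SD, n = 10) to 52.3% ± 11.5 (SD, n = 9), a difference of -25.0 percentage points (two-sided exact permutation p = 0.000195, adjusted p = 0.0450). Krt18 was the 1 gene of the 9 that passed, where 0.455% of 14080 genes did. At unequal depth the means were 88% and 65.3% (adjusted p = 0.0196, exact permutation), and with 2 or more reads required the difference was -18 points (adjusted p = 0.0507, exact permutation), which no longer passed. Leaving out each library in turn, an alternative chosen after seeing the data, gave differences from -26.8 to -22.1 points. The exact permutation p of these fits ran from 0.000123 to 0.000411. Their adjusted p-values were not computed, so whether the call holds in them was not tested.

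**Figure D4:**
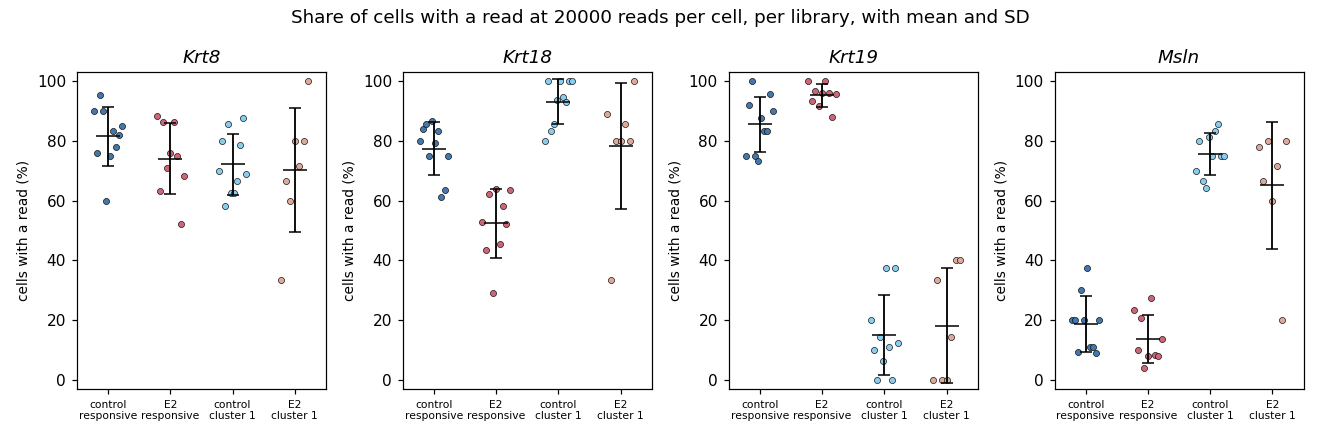
Share of cells with a read of Krt8, Krt18, Krt19 and Msln, in percent of the cells of a library at 20000 reads per cell, by treatment and cluster; points are libraries and bars the mean and SD. For Krt18 in responsive cells the E2 libraries sit at 29.2% to 64% and the control libraries at 61.1% to 86.7%.

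Krt19 was read in 85.5% ± 9.15 (SD, n = 10) of control responsive cells and in 95.2% ± 3.82 (SD, n = 9) of E2 responsive cells (exact permutation p = 0.00853, adjusted p = 0.257). In the main tests Krt19 thus was called by level and not by share, and Krt18 by share and not by level. These tests differ in depth, since the main level test used cells that were not thinned. On thinned cells the level was called for both Krt19 (log2 fold change 0.67, adjusted p = 0.00526, edgeR) and Krt18 (-0.73, adjusted p = 0.0352, edgeR). The Krt18 level was called under 2 of 7 other settings, so its split between level and share depended on the setting. Krt7 was read in all control responsive cells and in 97.1% ± 2.26 (SD, n = 9) of E2 responsive cells (exact permutation p = 0.00619, adjusted p = 0.220). Msln was read in 41.1% of control and 21.7% of E2 responsive cells at unequal depth (adjusted p = 0.0529, exact permutation), and in 18.8% and 13.7% at equal depth (adjusted p = 0.750, exact permutation).

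In cluster 1 cells none of the 8 genes tested was called with E2 by edgeR, DESeq2 or any other setting, where edgeR called 0.0839% of 8342 genes. At an unadjusted p below 0.05 there was 1 of the 8, Gata6, beside 7.48% of all genes. The ranges of E2 and control libraries overlapped for all 8, and 0.0959% of all genes had none. Krt18 ran from 261 through 799 to 1064 CPM in control and from 15.6 through 550.0 to 990.2 CPM in E2 libraries. The lowest was the library of column 15, with 3 cluster 1 cells. Its log2 fold change was -0.37 (SE 0.41, adjusted p = 0.934). Krt8 ran from 162 through 320.4 to 497 CPM and from 75.7 through 246 to 294 CPM (-0.53, SE 0.30, adjusted p = 0.761).

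Krt7 ran from 661 through 1101 to 1438 CPM in control cluster 1 cells and from 592 through 898 to 1107 CPM in those with E2 (-0.29, SE 0.19, adjusted p = 0.815). Krt19 was low in both, with overlapping ranges (-0.30, SE 1.015, adjusted p = 0.986). The SEs of these 4 keratins were larger than in responsive cells, and the 7 E2 libraries in the fit held 3 to 9 cluster 1 cells each.

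Msln ran from 152 through 303 to 498 CPM in control and from 36.4 through 292 to 438 CPM in E2 cluster 1 libraries (log2 fold change -0.41, SE 0.35, adjusted p = 0.882). Upk3b ran from 1509.6 through 2019.5 to 2287 CPM and from 1346 through 1876 to 2333 CPM (0.08, SE 0.15, adjusted p = 0.960). Wt1 ran from 589 through 667 to 849 CPM and from 343 through 515 to 803 CPM (-0.29, SE 0.19, adjusted p = 0.814).

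Gata6 ran from 292 through 359 to 523 CPM in control and from 62.4 through 229.8 to 411 CPM in E2 libraries (-0.60, SE 0.27, p = 0.0382 unadjusted in edgeR, adjusted p = 0.648). Gata4 was too low to be tested there, from 0 through 5.47 to 17.4 CPM in control and from 0 through 1.68 to 60.7 CPM in E2 libraries. Per total reads without TMM, its libraries at 0 allow up to 4.21 CPM (control, column 6), 12.8 CPM (E2, column 15) and 8.16 CPM (E2, column 20). On the TMM scale of the levels, 3 reads in cluster 1 of column 15 were 15.6 CPM (Krt18). By share of cells no gene of the table was called in cluster 1 (0% of 13465, with 865, or 6.42%, at an unadjusted p below 0.05 in the exact permutation test, and Krt18 alone among the 9). Krt18 was read in 93.0% ± 7.56 (SD, n = 10) of control and 78.3% ± 21.1 (SD, n = 7) of E2 cells of the cluster (exact permutation p = 0.0383, adjusted p = 0.711).

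An interaction term compared the effect of E2 in the 2 clusters, and none of the 9 genes was called by edgeR, DESeq2 or any other setting, where edgeR called 0.184% of 11394 genes. At an unadjusted p below 0.05 there were 2 of the 9, Wt1 and Gata6, beside 10.9% of all genes. Wt1 had the lowest p-value, with an interaction of -0.59 on the log2 scale (SE 0.21, adjusted p = 0.2504), from 0.24 in responsive and -0.29 in cluster 1 cells. Gata6 was at -0.68 (SE 0.29, adjusted p = 0.356). For Krt19 it was -1.04 (SE 0.82, adjusted p = 0.725), so the rise of Krt19 in responsive cells was not shown to be particular to them. Krt18 was at 0.14 (SE 0.45) and Krt8 at -0.05 (SE 0.31). The edgeR fit treated the 2 cluster sums of a library as separate samples. A limma-voom fit with the library as a block was among the other settings.

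Over all cells of a library, with the cluster shares left in, Krt19 again was the 1 gene of the 9 called, where 1.62% of 10941 genes were. It ran from 169 through 269 to 369 CPM in control and from 391 through 509.6 to 622 CPM in E2 libraries, with no overlap (log2 fold change 0.98, SE 0.14, adjusted p = 0.000117). Msln ran from 90.1 through 123 to 232 CPM and from 4.37 through 52.6 to 149 CPM, with overlap (-1.39, SE 0.38, adjusted p = 0.0569). Krt18 was at -0.67 (SE 0.19, adjusted p = 0.0728). Msln and Krt18 passed without the E2 library of column 11, at -1.72 (adjusted p = 0.00935) and -0.79 (adjusted p = 0.0199), and Msln also without that of column 15, at -1.23 (adjusted p = 0.0270). Gata4 was at 1.17 (SE 0.39, adjusted p = 0.160). Under other settings over all cells, Krt19 was called in 5 of 5, Msln in 4 of 5 and Krt18 in 3 of 5. Gata4 was called in 2 of the 4 settings that held it. These comparisons use the same libraries as those within clusters. Cluster 1, which is low in Krt19 and high in Msln, made up 126 of 329 control and 42 of 260 E2 cells.

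At 20000 reads per cell, between 3 and 9 of the 9 genes were read in a cell. A responsive cell had reads of 6.54 ± 0.214 (SD, n = 10) of the 9 genes in control and of 6.24 ± 0.351 (SD, n = 9) in E2 libraries. The means were 6.37 ± 0.315 (SD, n = 10) and 5.90 ± 0.578 (SD, n = 7) in cluster 1. No cell lacked a read of all 4 keratins. All 9 genes were read in 7 of 203 control and 2 of 218 E2 responsive cells and in 0 of 126 and 0 of 42 cluster 1 cells.

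All 4 keratins were read together in 57.9% ± 12.2 (SD, n = 10) of control responsive cells, from 40% to 81.0% of a library, and in 42.2% ± 13.6 (SD, n = 9) of E2 responsive cells, from 24% to 56%. In cluster 1 the shares were 11.5% ± 11.7 (SD, n = 10) and 10.6% ± 15.4 (SD, n = 7). Cluster 1 cells most often lacked Krt19: it was read in 16 of 126 control and 6 of 42 E2 cells at this depth, and in 50 and 17 at full depth. Krt8 and Krt18, which pair in filaments, were both read in 65.3% ± 11.3 (SD, n = 10) of control and 43.0% ± 13.5 (SD, n = 9) of E2 responsive cells, and in 67.6% and 54.8% of cluster 1 cells.

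**Figure D5:**
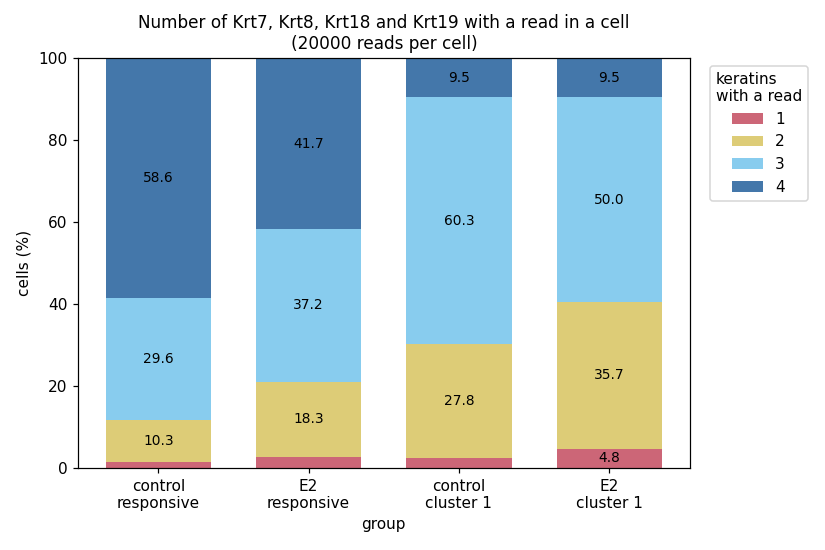
Number of the keratins Krt7, Krt8, Krt18 and Krt19 with a read in a cell at 20000 reads per cell, in percent of the pooled cells of each group (203 control and 218 E2 responsive cells, 126 control and 42 E2 cluster 1 cells). All 4 were read in 58.6% and 41.7% of control and E2 responsive cells and in 9.52% of cluster 1 cells of either treatment.

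Responsive cells with a read of Krt8 more often had one of its partner Krt18. Among E2 responsive cells, Krt18 was read in 58.1% of those with Krt8 and in 36.2% of those without, and among control responsive cells in 80.1% and 64.9%. In cluster 1 the same shares were 93.3% and 91.7% in control cells and 82.8% and 84.6% in E2 cells, where at full depth they were 90.6% and 90%. The pattern was not limited to the pair. Msln, which is not a keratin, was read in 15.6% of E2 responsive cells with Krt8 and 6.90% of those without. In control responsive cells these were 19.9% and 16.2%. Gata4 went the other way in responsive cells, read in 17.5% of E2 cells with Krt8 and in 32.8% of those without, and in 13.9% and 27.0% of control cells. At full depth this turned in E2 cells, to 41.7% and 39.5%, and was 27.2% and 42.1% in control cells. Krt19 and Msln, which marked opposite clusters, were read together in 15.3% of control responsive and 8.73% of control cluster 1 cells, against 16.6% and 9.67% for the product of their shares. These are descriptions over cells that share libraries.

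Across responsive cells, 203 control and 218 E2, levels at equal depth minus the library mean were weakly correlated. Pearson's r was 0.29 for Krt7 with Krt8, 0.22 for Krt8 with Krt18 and 0.16 for Krt18 with Krt19. In the deposited imputed values, in which similar cells lend each other reads, the same pairs gave 0.80, 0.63 and 0.21, and Krt19 with Msln gave -0.42 in place of 0.07. Of 5141 genes read in at least 20% of these cells, those most like Krt7 were Upk1b (0.35), another uroplakin, Sparc (0.32), a matrix protein, and Krt8. For Upk3b they were Upk1b (0.30), Smpd3 (0.29) and Crip1 (0.26). For Krt8 they were Krt7, Krt18 and Col4a1 (0.22), a basement membrane collagen, and for Krt18 they were Krt7 (0.27), Smim20 (0.23) and Unc45b (0.23). For Krt19 the leading genes were Igfbp5 (0.21), which binds insulin-like growth factors, Cuta (0.21) and Crip1 (0.21). Wt1 was nearest to Dnajb14 (0.20), Zbtb20 (0.18) and Kctd3 (0.18), and Gata6 to Zc3h11a (0.21), Rtf1 (0.20) and Tmem263 (0.19). Coefficients this low in sparse counts are given as a description.

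Other keratins had few reads. Of 20 further keratins, 4 were in the count table (Krt10, Krt14, Krt15 and Krt222), the other 16 were not analysed here, and 0 of the 2 tested were called in either cluster. Krt15 had the most reads of these, at 33.0 ± 29.1 CPM in control (SD, n = 10) and 56.9 ± 36.5 CPM in E2 responsive libraries (SD, n = 9). Of 17 keratin partners and desmosome genes, 10 were measured and 7 tested in responsive cells. Pkp4, a plakophilin of cell junctions, rose with E2 (log2 fold change 2.54, SE 0.60, adjusted p = 0.0264), and the other 6 were not called, with a median over the list of -0.04 beside 0.02 for all genes. Dsp, the plaque protein that ties keratins to desmosomes, was at 3.42 and 1.41 CPM in control and E2 responsive libraries, with SDs larger than the means. Of 10 other intermediate filament and lamin genes, 4 were tested and 0 called.

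Further mesothelial and OSE markers were plentiful. Of 25, 21 were measured, and their summed level ran from 6158 to 8555 CPM in control responsive and from 5430.2 to 7931 CPM in E2 responsive libraries. Of 20 tested in responsive cells, Igfbp5 rose with E2 (log2 fold change 2.62, SE 0.23, adjusted p = 1.69e-08), C3, a complement protein, fell (-0.85, SE 0.14, adjusted p = 0.000496) and 18 were not called. The study had picked Igfbp5 from these same cells as a marker of its E2-specific cluster, so its rise is no separate result. The median of the 20 was 0.04 beside 0.02 for all genes. Over all cells, with the cluster shares left in, Igfbp5 and C3 were called again. Aldh1a2 was called there too (log2 fold change 1.80, SE 0.35, adjusted p = 0.00374, edgeR). Of 21 further gonadal ridge factors, 16 were measured, 13 tested in responsive cells and 0 called. In cluster 1 no gene of any of these lists was called.

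Markers of other cells were measured beside them. Granulosa markers had 5 of 13 genes measured and a summed level of 317 to 499 CPM in control responsive and 75.5 to 391 CPM in control cluster 1 libraries, led by Amhr2, Inha and Inhbb. Theca markers had 5 of 8 measured, led by Star, Fdx1 and Scarb1, at 89.2 to 161 and 164 to 559 CPM. The 3 of 8 oviduct markers measured, Pax8, Cldn3 and Ovgp1, summed to 86.4 to 166 and 23.1 to 66.4 CPM. The 5 of 8 endothelial markers, mostly Pecam1, then Kdr and Egfl7, summed to 469 to 838 and 373 to 669.8 CPM, and the 5 of 8 leukocyte markers, led by Cd68, Csf1r and Cd14, to 57.9 to 159.9 and 17.2 to 94.9 CPM. Muscle and pericyte markers, 4 of 8 with Tagln, Acta2 and Cspg4 leading, stayed at 0 to 47.1 CPM in control responsive libraries and reached 1337 CPM in 1 control cluster 1 library. With E2 in responsive cells, Thy1, a fibroblast surface protein, fell (log2 fold change -2.78, SE 0.32, adjusted p = 2.37e-06). No other tested gene of these 7 lists, stromal markers included, was called in responsive or cluster 1 cells. In responsive cells 7 stromal and 3 each of granulosa, theca, oviduct, endothelial and leukocyte markers were tested. In cluster 1 these were 4 stromal, 3 granulosa, 3 theca, 2 leukocyte, 1 oviduct and 1 endothelial. Of muscle and pericyte markers 0 were tested in either. Over all cells Thy1 was called again (-2.37, SE 0.31, adjusted p = 2.46e-05, edgeR), and Tagln was called (-3.41, SE 0.89, adjusted p = 0.0442, edgeR). Tagln was at 125 ± 363 CPM in control cluster 1 libraries (SD, n = 10), an SD larger than its mean. The muscle and pericyte sum had a median of 4.36 CPM there, beside the library at 1337 CPM. Whether the Tagln call holds without that library is not given here.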

How the data were processed

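Single-cell libraries of 10 control and 9 E2 columns were analysed. Per the labels and the study's methods, the authors kept sites with 1 live cell by microscopy, quantified transcripts with kallisto 0.44.0 on GRCm38 and deposited estimated counts per gene and cell, without normalization. No doublet caller was run here; cells held 22184 to 248894 reads. The 589 cells, 329 control and 260 E2, are as many as the study's results state and fewer than its methods state. Of the deposited values above 0, 66.9% were whole. kallisto splits reads between similar genes, and 73.9% of the values of Krt7, 22.5% of Krt19, 55.5% of Wt1 and 55.7% of Gata4 were not whole. There are no molecular identifiers, so limits (3 counts for a count of 0) cover counting error only. They were taken from total reads without TMM, unlike the levels. The authors deposited imputed values taken as log2 (scran scaling, then MAGIC), used here only for correlations. Cluster labels and the percent of mitochondrial reads were taken from the metadata the authors deposited; cluster 1 is label 2 of the 2-cluster SC3 labels. All 40 row barcodes recur in more than 1 library by design.

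Counts were rounded and summed per library and cluster (at least 3 cells). The main test was the quasi-likelihood test of edgeR 4.0.16 (R 4.3.3), after TMM and filterByExpr, with Benjamini-Hochberg adjustment over all genes tested. Shares of cells used exact two-sided permutation of libraries, for which the smallest p is 2.17e-05 with 10 against 9 libraries and 0.000103 with 10 against 7. It was computed with numpy 2.4.6 and checked against scipy 1.17.1, which also gave the Krt18 fits with each library left out. The scripts were tested on simulated data. For edgeR the planted changes were larger than the main changes of the 9 members with E2, so recovery of changes of that size was not tested. Alternatives were DESeq2 1.42.0, limma-voom (limma 3.58.1), no gene filter, thinned cells, at least 5 cells, 3-cluster labels, limma on cell means of log2(CPM + 1), a library block for the interaction, and leaving out each library. Named genes are the 9 members, called genes of the other lists, the 3 highest genes of each list of other cell types, and the 3 genes most correlated with each member read in at least 20% of responsive cells. Krt10, Krt14, Krt222, Dsp, Col1a1, Fbln1 and Pdgfra were also named to complete a list. Symbols came from GRCm38 annotation for 14135 of 14299 genes. The genes and lists were chosen with earlier results of these data known.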

Additional observations from a re-analysis of the deposited data

Results flagged for a closer look

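Of 36 groups of libraries tested for a library far from the rest, by Dixon's ratio at the 95% level, 4 stood out, and chance alone gives about 1 in 20. In E2 responsive cells the lowest Krt19 level was 432 CPM (column 15), with the next at 600.1 CPM. In E2 cluster 1 cells the highest Krt19 level was 87.7 CPM (column 20), with the next at 36.4 CPM. In the same cells the highest Gata4 level was 60.7 CPM (column 17), with the next at 4.33 CPM. In control cluster 1 cells the highest Gata6 level was 523 CPM (column 5), with the next at 412 CPM.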

How the results depend on the processing

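No paired analysis of E2 against control was possible because the replicate numbers are chip columns and the groups share none. Genes called in responsive cells numbered 141, against 233 with DESeq2 and 398 on cell means (mean of log2(CPM + 1), limma). In cluster 1 they numbered 7, against 50 with DESeq2, 1 with no filter and 0 after thinning, and 1 to 9 with 1 library left out (1 without the E2 library of column 11 or 19, 3 without that of column 20 or the control library of column 2, 3, 4, 5, 8 or 10, and 4 without the control library of column 1, 7 or 9). The interaction gave 21, against 98 with DESeq2, 13 with limma-voom and 12 after thinning, and 15 to 44 with 1 library left out (38, 44, 36 and 37 without the E2 library of column 11, 16, 17 or 18). Over all cells 177 became 317 and 524 with DESeq2 and cell means. By share of responsive cells 64 became 162 without thinning.

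Directions that turned were of values not called. On cell means, Wt1 was at -0.0280 in responsive and -0.26 over all cells, and Gata6 at -0.11 in responsive cells. In cluster 1, Krt19 was at 0.23 with 3-cluster labels and Upk3b at -0.0269 after thinning. The interaction of Krt7 was 0.0305 with limma-voom, 0.13 with DESeq2, 0.12 after thinning, 0.0609 with at least 5 cells, 0.00261 with 3-cluster labels, 0.15 on cell means and 0.0354 with the library block. The interaction of Krt8 was 0.12 with DESeq2, 0.16 after thinning and 0.52 on cell means, that of Upk3b -0.00592 after thinning and that of Msln -0.12 on cell means. The share difference of Upk3b in responsive cells was 0.0505 points without thinning, and that of Gata4 in cluster 1 -0.843 points with 2 or more reads. With 1 library left out, Gata6 in responsive cells ran from -0.0497 to 0.0965, Krt19 in cluster 1 from -1.45 to 0.11, and the interactions of Krt7 from -0.0861 to 0.0111, of Krt8 from -0.15 to 0.12 and of Krt18 from -0.0311 to 0.29. On cell means Krt7 (-0.61), Krt18 (-1.97) and Msln (-1.02) passed in responsive cells. The causes were not tested.

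Without thinning, all 4 keratins were read in 77.4% and 56.8% of control and E2 responsive and 35.5% and 27.1% of cluster 1 cells, and Krt8 with Krt18 in 82.3% and 58.0% of responsive and 80.6% of control cluster 1 cells. Cluster 1 of E2 libraries held 39 cells in the sums, which limits what could be detected there.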
